A study of Mus musculus with 30 samples.

Results

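The later phase of translation inhibition in NIH/3T3, a mouse fibroblast line, was examined by comparing the 3 libraries taken at 48 h with the 3 taken at 5 h, that is 6 of the 30 RNA-seq libraries of the study. All 13941 genes that passed the filter on low counts in this line were tested, of the 57186 gene identifiers in the table, and 27441 identifiers had at least 1 count in these 6 libraries. The study followed NIH/3T3 and CGR8, a mouse embryonic stem cell line, before and 1, 2, 5 and 48 h after addition of 0.1 µg/mL cycloheximide, with replicates A, B and C at each time (the 0 h samples carry the same treatment label). All cells compared here carried a knock-in described as SLT at the ROSA26 locus. The NIH/3T3 cells were grown in DMEM with 10% serum and antibiotics and kept below 80% confluency, and the CGR8 cells were grown in N2B27 medium with 2i and LIF. The 0 h libraries are the only untreated ones, so 48 h of drug and 48 h of culture cannot be told apart. The labels do not say whether replicates were separate cultures, so the p-values measure the spread between these samples only, which may be technical.

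Cycloheximide stalls the elongating ribosome and so blocks protein synthesis. Proteins that turn over quickly are lost first, and among them are repressors of transcription and factors that destabilise messenger RNA, so that many short-lived transcripts, the immediate-early genes above all, rise in the first hours (superinduction). With longer exposure, cells go on with less of their unstable proteins, cyclins among them, while stable proteins persist. The question addressed here is which of the early changes reverted, which persisted and which deepened between 5 h and 48 h.

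Most of the markers of fibroblasts were abundant in these libraries, and 2 of 12 were not. The summed level of 12 fibroblast markers, Col1a1, Col1a2, Col3a1 and Vim among them, was 10599.0 to 11636.7 CPM (counts scaled to a common library total) at 5 h, and 16212.6 to 16424.9 CPM at 48 h. Decorin (Dcn), a proteoglycan of tissue fibroblasts, did not exceed 0.412 CPM in any of the 6 libraries, and Thy1 did not exceed 0.093 CPM. Of 8 pluripotency markers, 6 lay under 1 CPM in every library, and the sum of the 8, most of it Klf4, was 225.9 to 237.6 CPM at 5 h and 212.1 to 226.5 CPM at 48 h. Endothelial and blood cell markers summed to 2.0 CPM or less. Markers of smooth muscle and myofibroblasts summed to 678.1 to 737.2 CPM at 5 h and 994.5 to 1007.0 CPM at 48 h. Most of this was Acta2, and 4 of the 7 markers lay under 1 CPM. Those of skeletal muscle, cartilage and bone summed to 162.9 to 177.1 CPM at 5 h and 345.5 to 361.9 CPM at 48 h. Most of that sum was Sox9, and 8 of the 11 markers lay under 1 CPM. Epithelial markers summed to 26.3 to 27.9 CPM at 5 h and 6.4 to 7.1 CPM at 48 h, most of it Krt14. Adipocyte markers summed to 44.0 to 48.8 CPM in these 6 libraries, nearly all of it Lpl, with 9 of the 10 under 1 CPM. In bulk RNA, fewer cells of a kind and less RNA per cell cannot be told apart. Library totals were 18.2 to 25.2 M counts (M, mega-counts).

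Between 5 h and 48 h, 4757 genes rose (34.1% of those tested) and 4383 fell (31.4%), by edgeR's quasi-likelihood test with Benjamini-Hochberg adjustment over all genes at an adjusted p under 0.05. Together these 9140 calls are 65.6% of the genes tested. At least a 2-fold change was called for 1730 genes that rose (12.4%) and 1349 that fell (9.68%). The 3 libraries of each time did not overlap for 5756 higher genes (41.3%) and 5349 lower ones (38.4%), together 79.7%. The median log2 fold change over all genes was 0.02. Each count out of all tested members of a list given further on is to be read against these shares.

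Transcript length moved with the comparison over the whole table. Genes whose longest annotated transcript is under 1 kb had a median log2 change of -0.59, and 48.9% of those 1764 genes fell while 6.92% rose. Genes with transcripts over 5 kb had a median of 0.53, and 60.7% of those 2540 genes rose while 11.7% fell. In single libraries, the median change against 0 h of genes over 3 kb minus that of genes under 1 kb was -0.44, -0.46 and -0.37 at 5 h and 0.31, 0.30 and 0.34 at 48 h. The sign thus differed between the groups in all 6 libraries. For this reason the median of each list below is followed by its value after the smooth trends with GC content and length were subtracted from each library, an adjustment added after the data were seen.

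**Figure D1:**
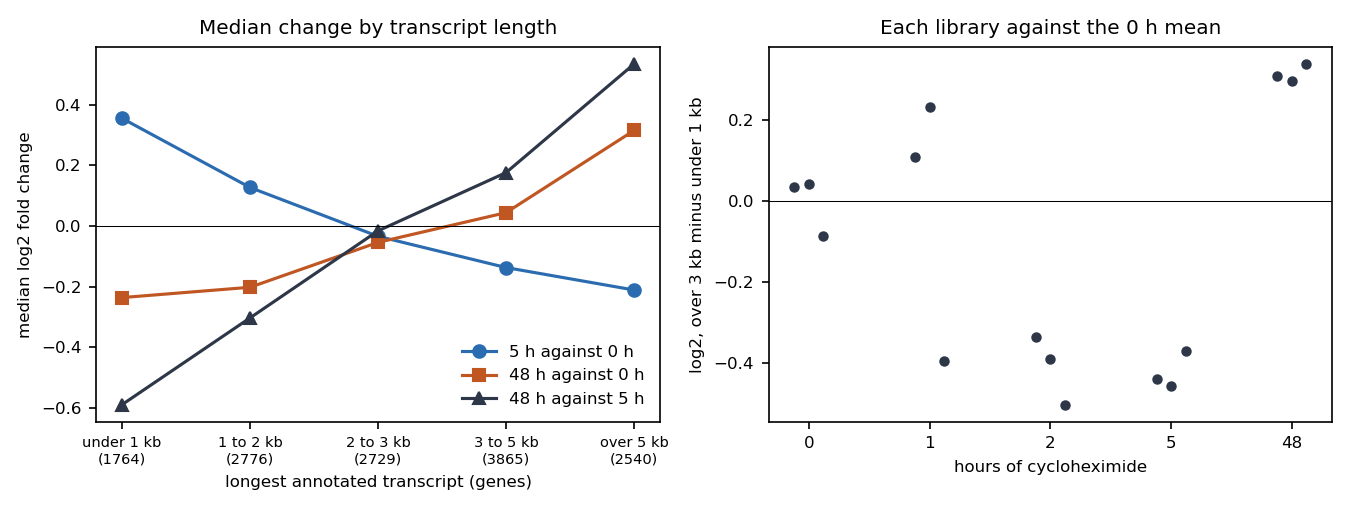
Left, median log2 fold change of genes by the length of the longest annotated transcript, for 5 h and 48 h against 0 h and for 48 h against 5 h. Right, the median of genes over 3 kb minus that of genes under 1 kb, against the 0 h mean, in each NIH/3T3 library. Short transcripts were relatively high at 5 h and long ones at 48 h, with medians for 48 h against 5 h running from -0.59 under 1 kb to 0.53 over 5 kb.

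The largest rise among genes of at least 10 CPM was that of Ranbp3l, which encodes a Ran-binding protein of the nucleus. Its levels were 0.371, 0.298 and 0.418 CPM at 5 h and 20.1, 15.6 and 19.4 CPM at 48 h (log2 fold change 5.65 ± 0.20 (SE), adjusted p = 1.41e-11). At 0 h it stood at 0.225 ± 0.0667 CPM (mean ± SD, n = 3), with no call at 5 h against 0 h (adjusted p = 0.162). Egr1, the zinc-finger factor of the immediate-early response, came next at 6.22, 5.15 and 6.37 CPM at 5 h and 109, 105 and 108 CPM at 48 h (log2 fold change 4.18 ± 0.20 (SE), adjusted p = 2.48e-10). It had stood at 117 ± 8.15 CPM at 0 h and 663 ± 77.7 CPM at 2 h, so the low point at 5 h lay far below the untreated level and the 48 h libraries were back at it (48 h against 0 h, -0.13 ± 0.16, adjusted p = 0.535). Pdzd2, a PDZ-domain protein, was also low at 5 h and returned, from 2.08 ± 0.431 to 19.7 ± 0.999 CPM after 16.4 ± 1.32 CPM at 0 h. Unlike Egr1 it had no peak at 2 h, where it stood at 8.33 ± 0.888 CPM.

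Most of the other leading rises passed the untreated level. The carboxylesterase Ces2e rose from 0.994 ± 0.0695 to 16.3 ± 0.725 CPM (log2 4.03 ± 0.19) and the phosphatidylinositol transfer protein Pitpnc1 from 2.14 ± 0.160 to 21.8 ± 0.551 CPM (3.35 ± 0.13). Trp53inp1, a p53-induced nuclear protein, was at 3.996, 4.47 and 3.35 CPM at 5 h and 35.97, 41.7 and 37.4 CPM at 48 h (log2 fold change 3.28 ± 0.19 (SE), adjusted p = 1.03e-09). Gxylt2, which extends the O-glucose on Notch repeats with xylose, rose from 11.9 ± 0.459 to 101 ± 1.36 CPM (3.08 ± 0.18), and Tle2, a Groucho co-repressor, from 1.23 ± 0.0629 to 12.2 ± 0.420 CPM (3.31 ± 0.26). Lpin1, a phosphatidate phosphatase, and Srgap3, an activator of Rac GTPase hydrolysis, rose by 3.01 ± 0.17 and 2.89 ± 0.17. Against 0 h, these 7 genes were higher at 48 h by 0.73 (Lpin1) to 3.47 (Ces2e) on the log2 scale, all past the threshold.

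Most of the largest falls were of genes that stood above 0 h at 5 h, 6 of the 7 given here past the threshold. The long noncoding RNA Wincr1 fell from 27.1 ± 3.37 to 1.17 ± 0.479 CPM (log2 fold change -4.58 ± 0.27 (SE), adjusted p = 1.63e-09). Gadd45b, a stress-induced signalling protein, was at 60.97, 49.9 and 47.8 CPM at 5 h and 4.44, 4.59 and 4.69 CPM at 48 h (-3.53 ± 0.14) after 11.1 ± 1.003 CPM at 0 h.

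Nipal1, a magnesium transporter, fell from 50.9 ± 1.64 to 6.25 ± 0.431 CPM (-3.02 ± 0.12). Arl5c, an Arf-like GTPase, and the secreted protease Htra1 fell, at -3.62 ± 0.28 and -2.97 ± 0.17 log2 units. The placental hormone Prl2c2 (proliferin) at -3.91 ± 0.15 and the lectin receptor Klra4 at -3.14 ± 0.21 belong to families of near-identical genes, so the reads behind their values may be shared with other members. All 7, of which Arl5c alone was not called at 5 h against 0 h, ended below their 0 h level, by log2 changes from -1.29 (Gadd45b) to -3.51 (Prl2c2), each past the threshold.

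**Figure D2:**
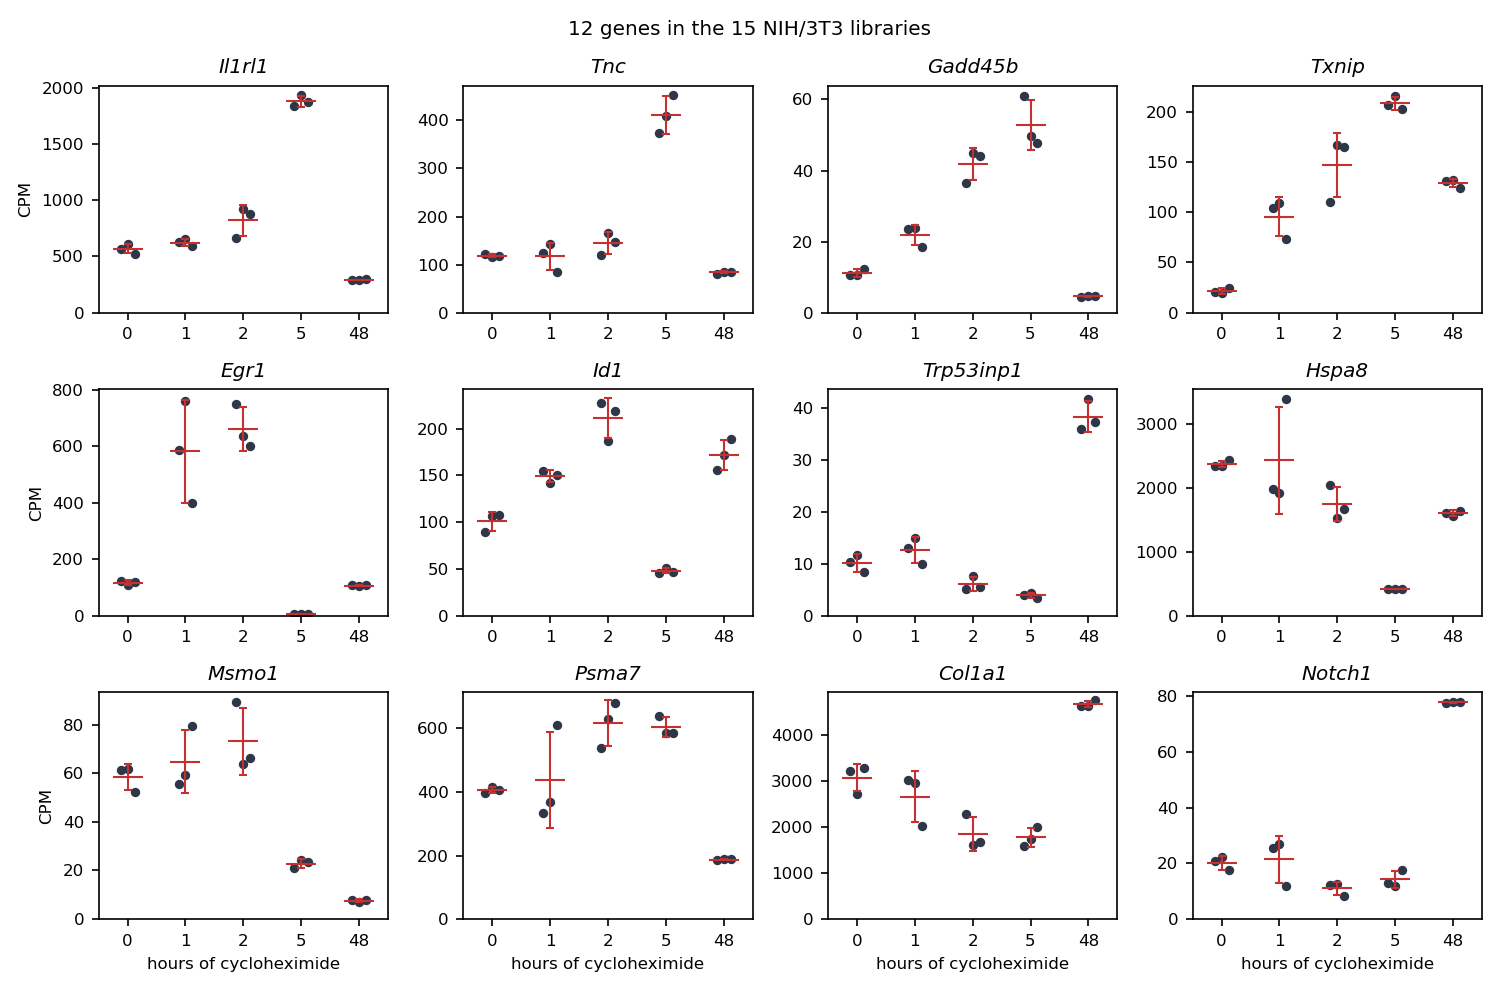
Levels in CPM, on axes from 0, of 12 genes at 0, 1, 2, 5 and 48 h of cycloheximide in NIH/3T3. Each point is 1 library, red bars give the mean ± SD of 3 replicates, and sampling times are evenly spaced. Egr1 dropped to 5.91 CPM at 5 h and regained 107 CPM, Il1rl1 and Tnc were highest at 5 h, and Msmo1 ended below 0 h.

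How acute changes ended was counted first from the 2 h libraries, because the comparison of 2 h with 0 h shares no library with that of 48 h with 5 h. Both comparisons did carry a trend with transcript length, in opposite directions, so these counts are not independent of it. At 2 h against 0 h the median log2 change was 0.335 under 1 kb and -0.281 over 5 kb. In the 2 h libraries, the median of genes over 3 kb minus that of genes under 1 kb was -0.334, -0.389 and -0.502. Of 2250 genes higher at 2 h than at 0 h (16.1% of those tested), 1752 (77.9%) fell from 5 h to 48 h, 115 (5.11%) rose and 383 (17%) were not called. Of 2628 genes lower at 2 h (18.9%), 1988 (75.6%) rose, 120 (4.57%) fell and 520 (19.8%) were not called. Among the 9063 genes not called at 2 h, 29.3% rose and 27.7% fell between 5 h and 48 h. The counts leaned on single early libraries. Without 0 h replicate A, the fallers among the raised genes numbered 997, and without 2 h replicate C 1078. Risers among the lowered genes numbered 1250 without 2 h replicate C. The lowered genes that fell again numbered 71 without 0 h replicate A, 79 without 0 h replicate C and 192 without 2 h replicate A. Adjusted for GC and length, raised genes fell in 1594 cases and rose again in 168, and lowered genes rose in 1278 cases and fell again in 208.

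Among changes of at least 2-fold at 2 h the shares were lower. Of 209 genes raised 2-fold (1.5% of those tested), 120 fell, 22 rose and 67 were not called, with a median log2 change from 5 h to 48 h of -0.87. Of 209 genes lowered 2-fold (1.5%), 120 rose, 9 fell and 80 were not called, with a median of 0.82. At 48 h, 48 of the raised genes were still above 0 h and 58 were below it, while 55 of the lowered genes were still below and 49 above.

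Of the 115 genes raised at 2 h that rose from 5 h to 48 h, 45 were still above the 0 h level at 5 h, 39 were not called against it and 31 were below it. Among all 2250 genes raised at 2 h, 74 were below 0 h at 5 h. The same 5 h libraries enter both comparisons, so this division is a description only. Id1, Id3 and Zfp36 were among the 31, with Egr1. Id1, an inhibitor of basic helix-loop-helix factors, was at 89.2, 106 and 107 CPM at 0 h, 228, 187 and 219 at 2 h, 45.97, 51.0 and 46.9 at 5 h and 156, 171 and 188 at 48 h (log2 fold change 1.84 ± 0.10 (SE), adjusted p = 1.03e-09). Id3, of the same family, was at 106, 103 and 110 CPM at 0 h, 227, 271 and 285 at 2 h, 65.6, 69.5 and 60.1 at 5 h and 210.3, 220.1 and 214 at 48 h (log2 fold change 1.72 ± 0.10 (SE), adjusted p = 1.03e-09). Zfp36, which encodes tristetraprolin, a protein that destabilises AU-rich mRNA, was at 14.1, 12.9 and 14.5 CPM at 0 h, 45.7, 32.7 and 36.1 at 2 h, 5.60, 4.64 and 6.09 at 5 h and 12.6, 12.9 and 13.4 at 48 h (log2 fold change 1.25 ± 0.17 (SE), adjusted p = 6.41e-06). In these 3 genes every 5 h library lay below every library of 0, 2 and 48 h, and at 48 h the Id genes stood above 0 h while Zfp36 did not differ from it (adjusted p = 0.62).

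Genes lowered 2-fold at 2 h that fell again were few and their later changes small. Fbxo9, a subunit of a ubiquitin ligase, went from 11.04 ± 1.25 to 7.72 ± 0.0925 CPM (log2 fold change -0.52 ± 0.14 (SE), adjusted p = 0.00477), Tfap4, a basic helix-loop-helix factor, from 34.6 ± 0.261 to 26.2 ± 1.66 CPM (log2 fold change -0.41 ± 0.08 (SE), adjusted p = 0.000425), and the zinc-finger factor Glis2 from 60.4 ± 5.07 to 48.6 ± 2.78 CPM (log2 fold change -0.31 ± 0.12 (SE), adjusted p = 0.0358). The call for Glis2 was lost with library size alone and without 48 h replicate A or C or 5 h replicate A or C. Lowered genes that rose most were Col27a1, a fibrillar collagen, at 2.60 ± 0.22, Olfm1, a secreted olfactomedin, at 2.47 ± 0.16, Pnrc1, a nuclear receptor coregulator, at 2.34 ± 0.12, and Nynrin at 2.13 ± 0.13. Pnrc1 went down from 16.6 ± 1.64 CPM at 0 h to 2.94 ± 0.206 CPM at 5 h and came back to 14.9 ± 0.546 CPM. Apol9b, an apolipoprotein L with a near-identical copy, was with Gadd45b among the 4 raised genes that fell most, from 11.03 ± 0.740 to 1.41 ± 0.0802 CPM (-2.96 ± 0.16).

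Counted from 5 h, which shares its libraries with the later comparison so that the counts are a description only, 3339 genes were above 0 h (24%) and 3773 below it (27.1%). Of the raised genes 2311 (69.2%) fell, 194 (5.81%) rose further and 834 (25%) were not called. Of the lowered genes 2603 (69%) rose, 271 (7.18%) fell further and 899 (23.8%) were not called. Without 5 h replicate A, B or C, further rises numbered 123, 113 and 112. The genes that moved back did not stop at the untreated level in every case. Against 0 h, 3728 genes were higher (26.7%) and 3567 lower (25.6%) at 48 h. Of the 2311 that fell back, 202 were still above 0 h at 48 h, 1313 were not called against it and 796 were below it. Of the 2603 that rose back, 278 were still below, 1413 were not called and 912 were above.

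**Figure D3:**
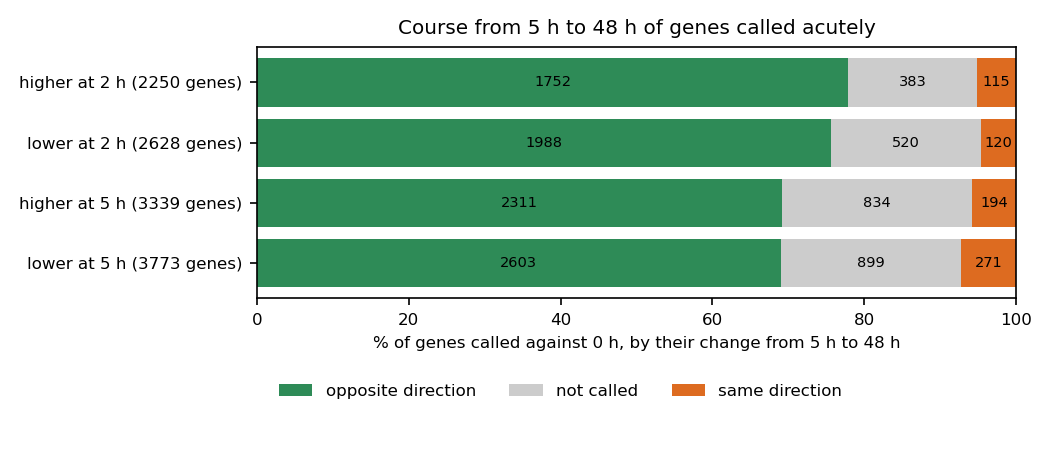
Share of the genes higher or lower than 0 h at 2 h and at 5 h, in %, that changed the other way, changed the same way or were not called from 5 h to 48 h. The 5 h bars share its 5 h libraries with the later comparison. The other way was taken by 1752 of 2250 raised and 1988 of 2628 lowered genes at 2 h.

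The gene lists below hold the pathways tied to these responses, and each is described by its counts and median. Counts of members chosen by their 5 h level share the 5 h libraries with the later change, which favours a move back. They are a description only, beside the 69.2% of all raised and 69% of all lowered genes at 5 h that moved back. For members chosen by their 2 h level, the shares of all genes are 77.9% and 75.6%. Immediate-early and AP-1 genes, the first transcription factors induced by serum or stress, split: 13 of 37 rose and 12 fell, with a median log2 change of -0.11 (-0.27 adjusted for GC and length). At 2 h 33 of the 37 had been above 0 h, and of these 12 fell from 5 h to 48 h, 11 rose and 10 were not called. Besides Egr1, the AP-1 factor Fos rose, at 0.536, 0.510 and 0.279 CPM at 5 h and 1.84, 2.30 and 2.08 CPM at 48 h (log2 fold change 2.20 ± 0.28 (SE), adjusted p = 4.48e-06). Egr2 and Btg2 rose by 1.19 ± 0.16 and 1.04 ± 0.10. Atf3, a repressor of the ATF family, was at 8.36, 7.49 and 8.46 CPM at 5 h and 2.41, 2.17 and 2.35 CPM at 48 h (log2 fold change -1.81 ± 0.23 (SE), adjusted p = 4.49e-06), and Maff, Fosb and Klf10 fell, at -1.61 ± 0.16, -1.60 ± 0.48 and -1.07 ± 0.12. Adjusted for GC and length, 13 rose and 18 fell.

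ERK feedback genes, the phosphatases and Sprouty proteins that damp growth factor signalling, also went both ways: 7 of 15 rose and 5 fell, with a median log2 change of 0.23 (-0.01 adjusted for GC and length). Spry4 was at 6.18, 5.79 and 6.88 CPM at 5 h and 18.98, 18.1 and 19.9 CPM at 48 h (log2 fold change 1.60 ± 0.16 (SE), adjusted p = 2.58e-07), again at its 0 h level of 18.6 ± 1.43 CPM. Etv5, an ETS factor, and Spred3 rose by 1.33 ± 0.13 and 1.07 ± 0.16. The nuclear ERK phosphatase Dusp5 fell from 32.1 ± 2.61 to 13.7 ± 0.710 CPM (log2 fold change -1.22 ± 0.15 (SE), adjusted p = 3.15e-06). Fallers numbered 2 with library size alone and 3 without 48 h replicate A or 5 h replicate C.

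Inflammatory and secreted serum-response genes mostly fell: 3 of 20 rose and 16 fell, with a median log2 change of -0.96 (-0.91 adjusted for GC and length). Of the 17 raised at 2 h, 15 fell and 2 rose, and 11 of the 17 were below 0 h at 48 h. Il1rl1, the receptor of interleukin 33, was at 569, 608 and 526 CPM at 0 h, 1839, 1936 and 1873 at 5 h and 289, 289.6 and 296 at 48 h (log2 fold change -2.69 ± 0.11 (SE), adjusted p = 5.43e-11), a peak at 5 h in all 3 libraries. Tnfrsf12a, the receptor of TWEAK, was at 313, 271 and 287 CPM at 5 h and 64.95, 66.6 and 60.2 CPM at 48 h (log2 fold change -2.18 ± 0.16 (SE), adjusted p = 1.06e-08). Il6 and Hbegf fell, at -2.21 ± 0.55 and -1.86 ± 0.11, and the neutrophil chemokine Cxcl1 from 6.28 ± 0.0960 to 1.23 ± 0.317 CPM (-2.37 ± 0.54). The 3 risers were Csf1, Ccl2 and Ccl7, at 0.35 ± 0.11, 0.41 ± 0.15 and 0.61 ± 0.13. Csf1 came to -0.01 with the adjustment, and Ccl2 lost its call without 48 h replicate A or C or 5 h replicate A or C.

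Most interferon-response genes rose: 13 of 21 rose and 2 fell, with a median log2 change of 0.70 (1.11 adjusted for GC and length). All 6 that were below 0 h at 5 h rose, and all 6 ended above 0 h. Ddx58, which encodes the RNA sensor RIG-I, was at 5.04, 3.97 and 4.50 CPM at 0 h, 4.04, 4.68 and 4.56 at 5 h and 20.0, 21.2 and 22.98 at 48 h (log2 fold change 2.27 ± 0.18 (SE), adjusted p = 2.57e-08). Xaf1, a pro-apoptotic protein, was at 2.43, 1.70 and 2.19 CPM at 5 h and 12.7, 11.2 and 11.3 CPM at 48 h (log2 fold change 2.48 ± 0.15 (SE), adjusted p = 1.61e-09). The peptide transporter Tap1, and Stat2, the signal transducer of type I interferon, rose by 1.63 ± 0.14 and 1.45 ± 0.15, and Irf7 by 1.85 ± 0.36. Irf1 and Psmb10 fell, at -0.52 ± 0.10 and -0.44 ± 0.17, the latter not called without 48 h replicate A or B or 5 h replicate A, while Isg15, at -0.04 ± 0.21, was not called (adjusted p = 0.883) and came to 0.44 with the adjustment.

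**Figure D4:**
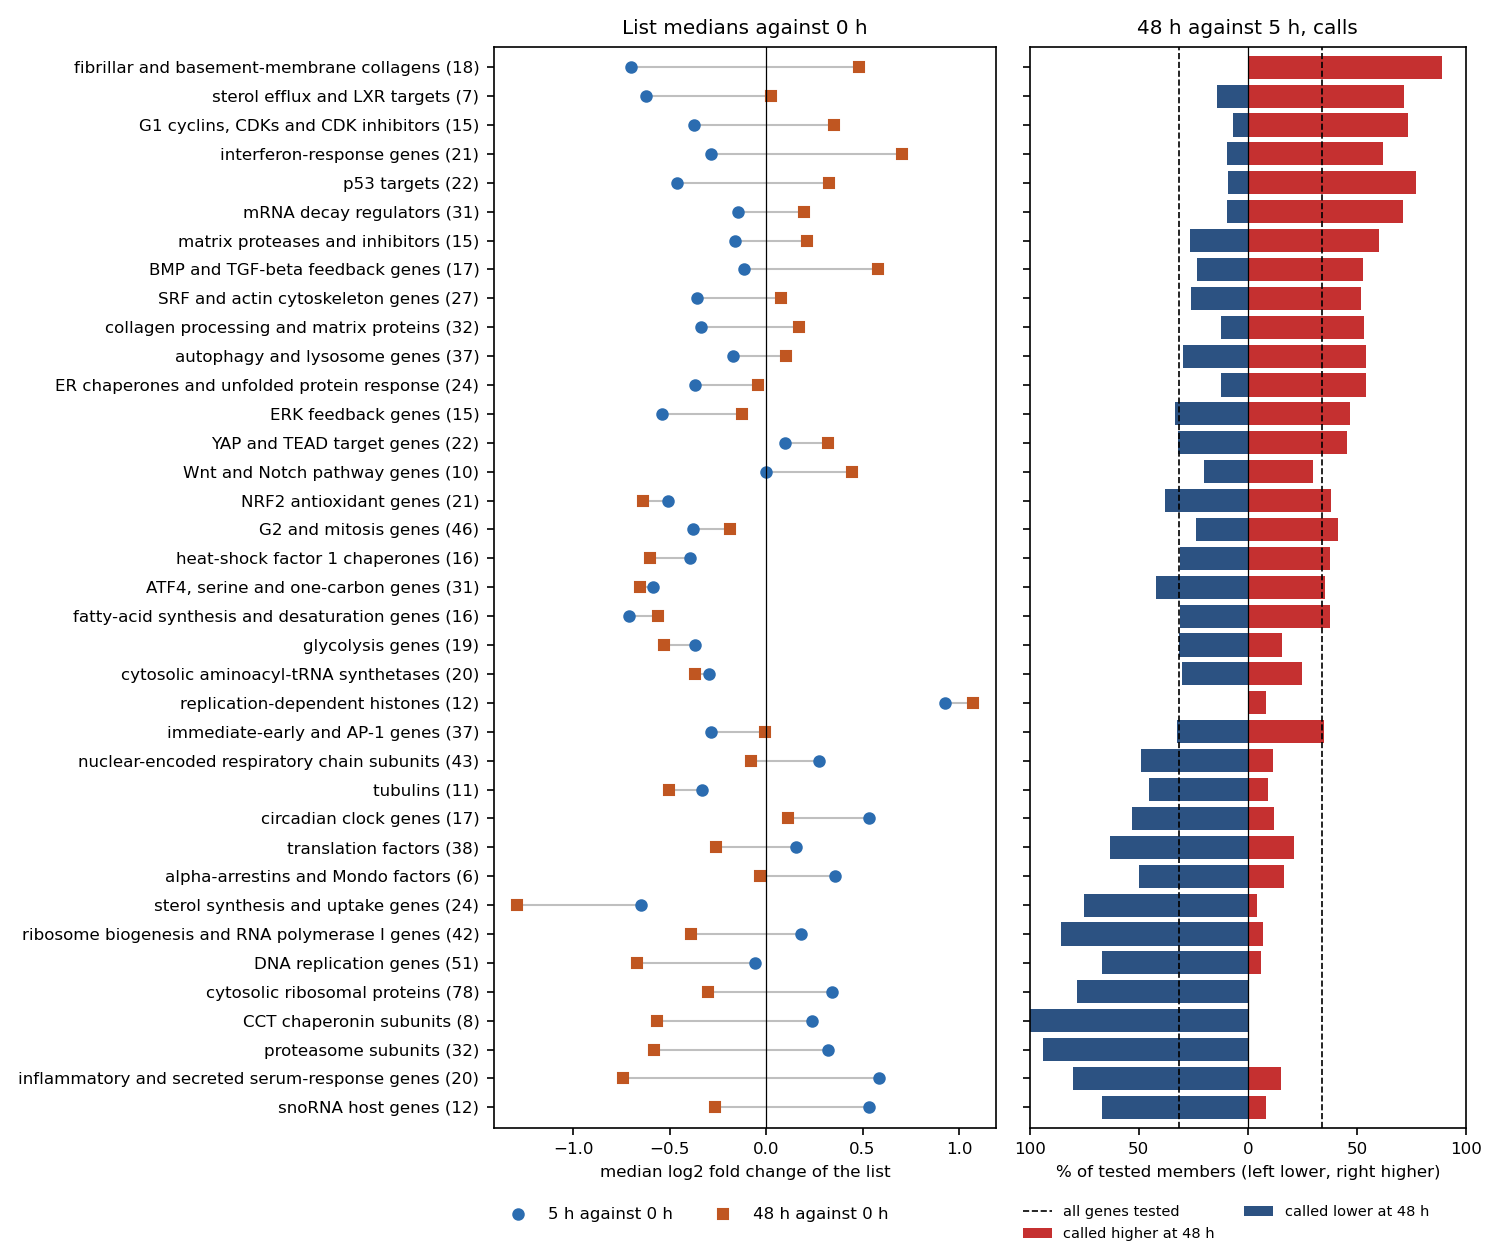
Left, median log2 fold change of each gene list at 5 h and at 48 h against 0 h, which both groups share. Right, share of tested members called higher or lower at 48 h than at 5 h, with dashed lines at the shares of all genes tested (34.1% and 31.4%). Collagens lay at the top with 16 of 18 higher, and CCT and proteasome subunits near the bottom with 8 of 8 and 30 of 32 lower.

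The fall of sterol synthesis genes seen at 5 h deepened. At 2 h the list as a whole had not fallen, with a median log2 change against 0 h of 0.025. At that time 1 of 24 members was higher than at 0 h and 4 were lower. These enzymes of the mevalonate and cholesterol pathway are driven by SREBP2, a factor released from the endoplasmic reticulum when sterol is scarce. From 5 h to 48 h 1 of 24 rose and 18 fell, with a median log2 change of -0.54 (-0.71 adjusted for GC and length). Of the 20 below 0 h at 5 h, 15 fell further, 1 rose and 4 were not called, against 271 further falls among 3773 lowered genes at large, and all 20 were below 0 h at 48 h. The list's median against 0 h was -0.65 at 5 h and -1.29 at 48 h.

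Along the pathway, Msmo1, a sterol methyl oxidase, was at 20.9, 24.4 and 23.3 CPM at 5 h and 7.93, 6.97 and 7.92 CPM at 48 h (log2 fold change -1.59 ± 0.16 (SE), adjusted p = 3.11e-07). The isoprenoid enzymes Idi1 and Fdps fell from 11.9 ± 1.05 to 3.41 ± 0.323 CPM (-1.80 ± 0.16) and from 51.7 ± 0.429 to 18.8 ± 0.539 CPM (-1.46 ± 0.13). Cyp51, Nsdhl, Sqle and Fdft1 fell, at -1.11 ± 0.09, -1.09 ± 0.17, -0.85 ± 0.08 and -0.77 ± 0.12. Hmgcs1 at 0.15 ± 0.10 and the factor Srebf2 itself at 0.08 ± 0.11 were not called. With the adjustment both passed the threshold, Hmgcs1 at 0.18 and Srebf2 at -0.60.

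**Figure D5:**
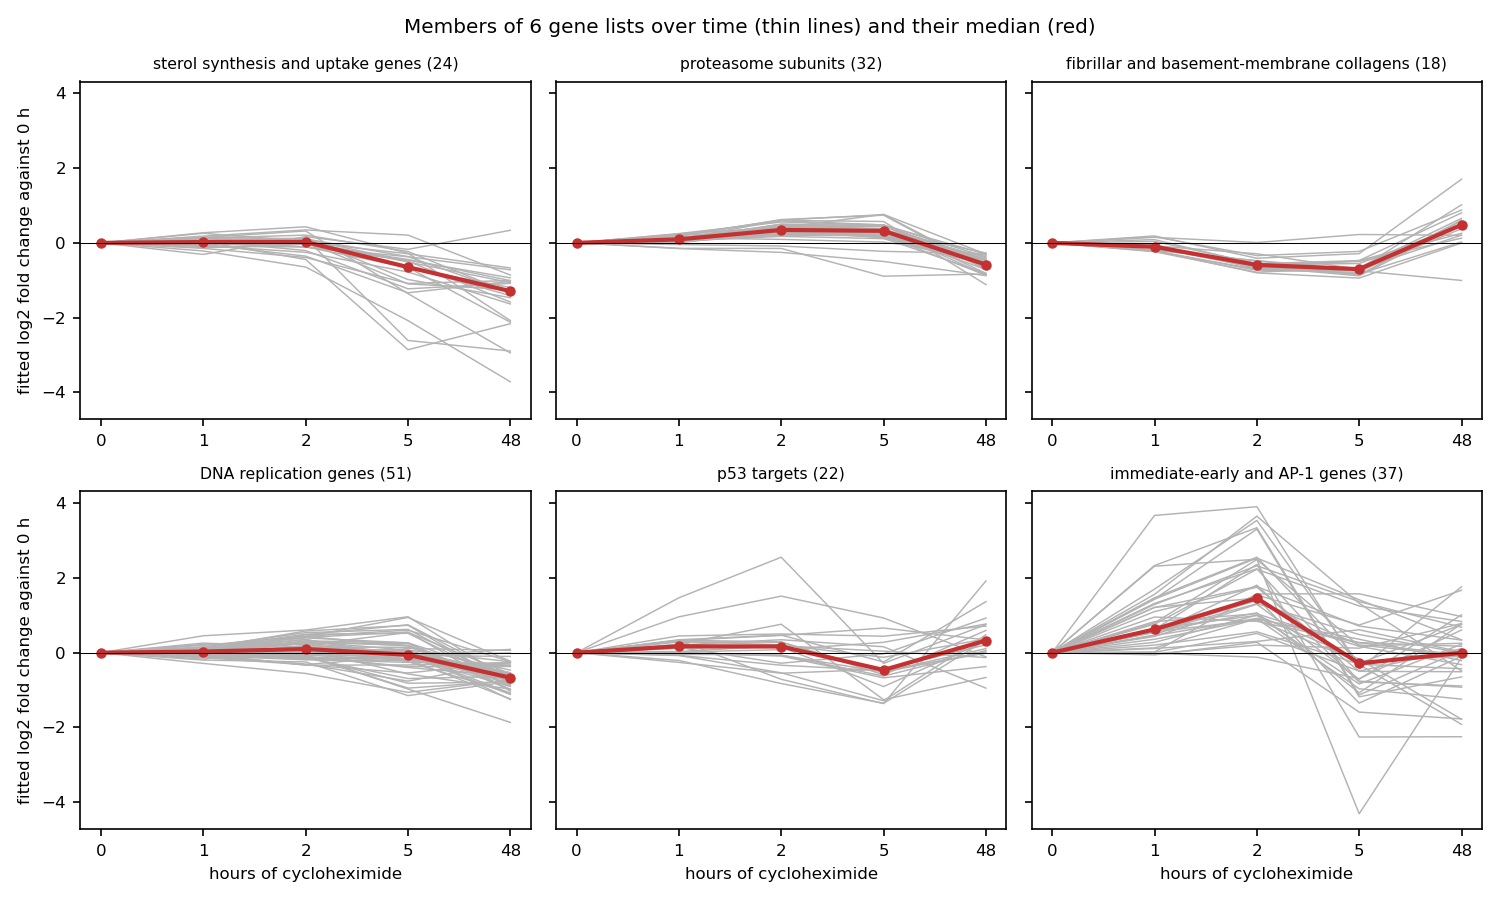
Fitted log2 fold change against 0 h of every tested member of 6 lists (thin lines) at 1, 2, 5 and 48 h, with the median of the list in red. The sterol median went on falling from -0.65 at 5 h to -1.29 at 48 h, while the proteasome median turned from 0.32 to -0.58 and the collagen median from -0.70 to 0.48.

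Genes of sterol efflux and the LXR response moved the other way, though the list is short: 5 of 7 rose and 1 fell, with a median log2 change of 1.03 (0.64 adjusted for GC and length). The list's median against 0 h was -0.62 at 5 h and 0.03 at 48 h, when 1 member was above 0 h and 1 below. The 4 members below 0 h at 5 h all rose, and 3 of them were not called against 0 h at 48 h. Nr1h2, the receptor LXR beta, was at 20.9, 18.8 and 18.1 CPM at 5 h and 43.5, 45.1 and 41.9 CPM at 48 h (log2 fold change 1.17 ± 0.12 (SE), adjusted p = 3.55e-07). Npc1, which exports cholesterol from lysosomes, rose from 20.4 ± 1.35 to 41.7 ± 1.20 CPM (1.03 ± 0.12), and its soluble partner Npc2 fell from 194 ± 9.43 to 143 ± 3.11 CPM (-0.44 ± 0.12). Lpcat3, a phospholipid remodelling enzyme, rose by 0.65 ± 0.12. Without 5 h replicate A, 3 members rose. Of fatty-acid synthesis and desaturation genes, 6 of 16 rose and 5 fell, with a median log2 change of 0.04 (-0.17 adjusted for GC and length). With the adjustment 3 rose and 8 fell. Fallers numbered 2 with library size alone and without 48 h replicate C or 5 h replicate C, and 3 without 48 h replicate A or B. The lipogenic factor Srebf1 and acetyl-CoA synthetase Acss2 rose by 0.91 ± 0.13 and 1.08 ± 0.12, and the mitochondrial carboxylase Acacb by 1.39 ± 0.22, a call lost with the adjustment for GC and length. Acsbg1, a fatty-acyl-CoA synthetase, went from 7.56 ± 0.625 CPM to 0.323 ± 0.120 CPM.

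The alpha-arrestins, adaptors that remove transporters from the cell surface, and the Mondo factors that drive some of them include genes that rose early, and from 5 h to 48 h 1 of 6 rose and 3 fell, with a median log2 change of -0.50 (-0.62 adjusted for GC and length, with 5 fallers). Txnip, an inhibitor of thioredoxin and of glucose uptake, was at 20.7, 19.4 and 24.4 CPM at 0 h, 207, 216 and 203 at 5 h and 131, 132 and 124 at 48 h (log2 fold change -0.69 ± 0.15 (SE), adjusted p = 0.000777). The groups at 5 h and 48 h did not overlap, yet each 48 h library lay above every 0 h library (log2 2.58 ± 0.16 against 0 h, adjusted p = 6.1e-09). Arrdc4 also stayed above 0 h, from 43.3 ± 2.34 to 23.3 ± 1.81 CPM (-0.89 ± 0.09) after 11.1 ± 0.674 CPM. Arrdc3 fell from 45.97 ± 1.30 to 24.6 ± 1.01 CPM (-0.90 ± 0.13), back to the 0 h level of 24.96 ± 2.54 CPM. The Mondo factor Mlxip rose by 0.70 ± 0.15, a call lost with the adjustment for GC and length.

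Of glycolysis genes, 3 of 19 rose and 6 fell, with a median log2 change of -0.05 (-0.17 adjusted for GC and length). Phosphoglycerate kinase Pgk1 and triosephosphate isomerase Tpi1 fell from 931 ± 14.2 to 446 ± 15.9 CPM (-1.06 ± 0.12) and from 609 ± 36.98 to 341 ± 7.76 CPM (-0.84 ± 0.16), and the hexokinases Hk1 and Hk2 rose by 0.98 ± 0.12 and 1.03 ± 0.12. ATF4 targets, with the serine and one-carbon enzymes induced by amino acid shortage, were divided: 11 of 31 rose and 13 fell, with a median log2 change of 0.05 (-0.16 adjusted for GC and length). The stress proteins Sesn2, Ddit4 and Trib3 rose, Sesn2 at 21.2, 24.3 and 22.4 CPM at 5 h and 74.6, 77.7 and 78.3 CPM at 48 h (log2 fold change 1.76 ± 0.12 (SE), adjusted p = 4.72e-09), Ddit4 by 1.36 ± 0.09 and Trib3 by 1.28 ± 0.17. Atf4 itself and the serine synthesis enzymes Psph, Psat1 and Phgdh fell, at -1.004 ± 0.11, -1.39 ± 0.15, -0.93 ± 0.16 and -0.77 ± 0.15. Of cytosolic aminoacyl-tRNA synthetases, 5 of 20 rose and 6 fell, with a median log2 change of -0.10 (-0.10 adjusted for GC and length, with 2 risers). Vars rose by 1.04 ± 0.14 and Aars by 0.78 ± 0.12, the latter a call lost with the adjustment, and Gars and Rars fell, at -0.65 ± 0.12 and -0.59 ± 0.08.

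Of the endoplasmic reticulum chaperones and unfolded protein response genes, 13 of 24 rose and 3 fell, with a median log2 change of 0.30 (0.26 adjusted for GC and length). Of the 12 below 0 h at 5 h, 11 rose. Xbp1, the factor spliced by IRE1, was at 105, 98.5 and 98.9 CPM at 0 h, 47.9, 47.0 and 43.9 at 5 h and 169, 161 and 156 at 48 h (log2 fold change 1.81 ± 0.09 (SE), adjusted p = 2.74e-10), lowest at 5 h and highest at 48 h in all replicates. Eif2ak3, the kinase PERK, rose from 6.65 ± 0.169 to 20.3 ± 1.62 CPM (1.61 ± 0.12), Syvn1, a ubiquitin ligase of degradation from the endoplasmic reticulum, from 19.1 ± 1.98 to 43.1 ± 1.59 CPM (1.17 ± 0.15), and the oxidase Ero1lb from 3.03 ± 0.210 to 6.52 ± 0.307 CPM (1.11 ± 0.14). The abundant chaperones Hspa5 at -0.05 ± 0.09 (adjusted p = 0.632) and Hsp90b1 at 0.18 ± 0.10 (adjusted p = 0.126) were not called, although Hsp90b1 passed with library size alone, with the adjustment, with voom and when only these 6 libraries were fitted, where Hspa5 also passed, at -0.088.

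The promoters of this list were searched because XBP1 and ATF6 act through a defined element. The endoplasmic reticulum stress element, spelled CCAAT, then 9 bases of any kind, then CCACG, was found on either strand in 9 of 22 windows of the list (40.9%) and in 0.119% of all 32851 windows of RefSeq starts, each running from 250 bases before to 50 bases after the start. The 4 stretches upstream of the start shown here, from the RefSeq table on GRCm38.p6 and read along the gene's strand, hold 1 match each in capitals. The bases just after the RefSeq start were found in a GENCODE M21 transcript of the gene for all but Dnajc3. They were picked after the values were seen, to show that members with the element rose (Syvn1 at 1.17 ± 0.15, Dnajc3 at 0.44 ± 0.08), fell (Pdia6 at -0.30 ± 0.08, not called with the adjustment) or were not called (Hsp90b1).
Syvn1, chr19:6046406-6046575, plus strand: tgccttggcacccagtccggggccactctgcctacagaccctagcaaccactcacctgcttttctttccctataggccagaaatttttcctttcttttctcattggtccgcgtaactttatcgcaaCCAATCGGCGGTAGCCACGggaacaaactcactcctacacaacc
Dnajc3, chr14:118937762-118937931, plus strand: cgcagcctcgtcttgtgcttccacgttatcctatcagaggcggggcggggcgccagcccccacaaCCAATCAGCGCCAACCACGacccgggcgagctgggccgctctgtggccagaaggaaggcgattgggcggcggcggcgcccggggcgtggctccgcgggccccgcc
Pdia6, chr12:17266419-17266544, plus strand: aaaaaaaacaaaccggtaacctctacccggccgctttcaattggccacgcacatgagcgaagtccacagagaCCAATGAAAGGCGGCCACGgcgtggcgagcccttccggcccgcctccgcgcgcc
Hsp90b1, chr10:86705510-86705614, minus strand: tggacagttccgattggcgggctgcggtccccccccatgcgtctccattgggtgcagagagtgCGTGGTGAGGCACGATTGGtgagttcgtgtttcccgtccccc

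Heat-shock chaperones that are targets of HSF1 went both ways: 6 of 16 rose and 5 fell, with a median log2 change of 0.09 (0.08 adjusted for GC and length). Hspa8, the constitutive Hsc70, was at 2340, 2346 and 2432 CPM at 0 h, 420.4, 424 and 419 at 5 h and 1615, 1556 and 1645 at 48 h (log2 fold change 1.93 ± 0.17 (SE), adjusted p = 8.76e-08). It regained most of its loss and stayed below 0 h (log2 -0.56 ± 0.17, adjusted p = 0.00883). The co-chaperone Bag3 rose from 49.5 ± 2.83 to 124 ± 3.08 CPM (1.33 ± 0.12), and the inducible Hspa1b from 1.21 ± 0.227 to 9.45 ± 0.256 CPM (2.97 ± 0.18), a gene whose copy Hspa1a is near-identical and may share its reads. The mitochondrial co-chaperonin Hspe1 fell from 819 ± 14.6 to 347 ± 5.43 CPM (-1.24 ± 0.14). The CCT chaperonin, which folds actin and tubulin, fell in every subunit: 0 of 8 rose and 8 fell, with a median log2 change of -0.76 (-0.63 adjusted for GC and length). Cct6a fell from 1131 ± 40.98 to 557 ± 14.1 CPM (-1.02 ± 0.12) and Cct3 from 1038 ± 43.2 to 528 ± 7.18 CPM (-0.98 ± 0.12). The 4 subunits above 0 h at 5 h were all below it at 48 h.

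Nearly all proteasome subunits fell: 0 of 32 rose and 30 fell, with a median log2 change of -0.85 (-0.57 adjusted for GC and length). All 18 that were above 0 h at 2 h fell. All 19 that were above 0 h at 5 h fell, and 16 of these 19 were below 0 h at 48 h. Psma7, of the outer ring of the core particle, was at 396, 417 and 406 CPM at 0 h, 639, 587 and 587 at 5 h and 185, 189 and 188 at 48 h (log2 fold change -1.69 ± 0.17 (SE), adjusted p = 2.52e-07). Psma6 and Psmb7, also of the core, and Psmd14, the deubiquitinase of the lid, fell from 407 ± 11.9 to 148 ± 6.43 CPM (-1.46 ± 0.14), from 375 ± 7.04 to 153 ± 5.97 CPM (-1.30 ± 0.09) and from 413 ± 17.7 to 154 ± 3.88 CPM (-1.42 ± 0.15). The exceptions were Psmd2 at -0.06 ± 0.09 and Adrm1 at 0.06 ± 0.10, which were not called, although Psmd2 passed at -0.093 when only these 6 libraries were fitted. With the adjustment for GC and length 30 members still fell and none rose, and each left-out library left 30 fallers.

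Of autophagy and lysosome genes, 20 of 37 rose and 11 fell, with a median log2 change of 0.31 (0.25 adjusted for GC and length). The initiating kinase Ulk1 rose from 10.5 ± 0.565 to 26.97 ± 0.335 CPM (1.36 ± 0.16), Atg9a, the membrane scramblase, from 20.7 ± 2.27 to 46.1 ± 2.32 CPM (1.16 ± 0.16), and the lysosomal channel Mcoln1 from 8.59 ± 0.463 to 18.8 ± 1.35 CPM (1.13 ± 0.10). Among the ubiquitin-like proteins of autophagy, Gabarapl2 fell, at -1.06 ± 0.16, and Atg12, at -0.71 ± 0.09, while Gabarap rose by 0.56 ± 0.14. NRF2 targets, which detoxify oxidants, split evenly: 8 of 21 rose and 8 fell, with a median log2 change of 0.17 (0.18 adjusted for GC and length). Haem oxygenase Hmox1 was at 16.4, 18.4 and 17.1 CPM at 5 h and 55.03, 55.7 and 54.2 CPM at 48 h (log2 fold change 1.67 ± 0.10 (SE), adjusted p = 2.22e-09), a partial return after 74.1 ± 5.06 CPM at 0 h. The glutathione transferase Gsta4 was at 252, 249.8 and 230.3 CPM at 5 h and 52.6, 48.2 and 51.8 CPM at 48 h (log2 fold change -2.26 ± 0.14 (SE), adjusted p = 2.35e-09). Peroxiredoxin Prdx1 and transaldolase Taldo1 fell, at -1.07 ± 0.12 and -1.07 ± 0.12.

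Genes of the translation apparatus mostly fell. Of cytosolic ribosomal proteins, 0 of 78 rose and 61 fell, with a median log2 change of -0.62 (-0.28 adjusted for GC and length). With the adjustment 11 rose and 39 fell, and the list is made of short transcripts. All 35 above 0 h at 5 h fell, 13 of them below 0 h. Rps27a was at 2073, 1867 and 1865 CPM at 5 h and 854, 888 and 856 CPM at 48 h (log2 fold change -1.16 ± 0.17 (SE), adjusted p = 1.56e-05), and Rps14, Rpl9 and Rpl13a fell, at -1.20 ± 0.20, -1.16 ± 0.16 and -1.46 ± 0.16. Many ribosomal protein genes have processed pseudogenes of nearly the same sequence, so single values may hold shared reads.

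Ribosome biogenesis and RNA polymerase I genes fell with and without the adjustment: 3 of 42 rose and 36 fell, with a median log2 change of -0.60 (-0.68 adjusted for GC and length). The box H/ACA protein Nhp2 was at 412, 373 and 367 CPM at 5 h and 95.9, 93.1 and 103 CPM at 48 h (log2 fold change -1.98 ± 0.15 (SE), adjusted p = 1.89e-08), and the pre-ribosomal factors Nop16 and Nip7 fell from 113 ± 3.53 to 33.1 ± 1.40 CPM (-1.77 ± 0.12) and from 188 ± 3.34 to 60.4 ± 1.35 CPM (-1.64 ± 0.12). Taf1d, of the polymerase I initiation complex, fell, at -1.41 ± 0.37, a call lost with the adjustment. The 3 risers were the large proteins Utp20, Polr1a and Tcof1, at 0.76 ± 0.15, 0.51 ± 0.13 and 0.31 ± 0.10, and with the adjustment none of them rose and Tcof1 fell by 0.32. All 20 that were above 0 h at 5 h fell, 13 of them below 0 h.

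Of translation factors, 8 of 38 rose and 24 fell, with a median log2 change of -0.48 (-0.31 adjusted for GC and length, with 5 risers). Eif2s1, the regulated subunit of eIF2, was at 493, 506 and 494 CPM at 5 h and 173, 181 and 183 CPM at 48 h (log2 fold change -1.47 ± 0.12 (SE), adjusted p = 2.64e-08), and the cap-binding Eif4e fell from 371 ± 1.97 to 174 ± 2.96 CPM (-1.10 ± 0.09). Its inhibitors moved apart, Eif4ebp1 falling at -1.03 ± 0.15 and Eif4ebp2 rising by 1.31 ± 0.11. The snoRNA host genes, noncoding transcripts whose spliced RNA is degraded during translation, fell on the median: 1 of 12 rose and 8 fell, with a median log2 change of -1.02 (-0.73 adjusted for GC and length). Zfas1 was at 37.6, 43.9 and 47.7 CPM at 0 h, 219, 204 and 195 at 5 h and 41.6, 43.4 and 46.9 at 48 h (log2 fold change -2.23 ± 0.54 (SE), adjusted p = 0.00185) and Snhg1 at 95.9, 95.1 and 99.9 CPM at 0 h, 359, 396 and 359.8 at 5 h and 81.6, 82.9 and 82.8 at 48 h (log2 fold change -2.17 ± 0.36 (SE), adjusted p = 6.68e-05). Both were high at 5 h and back at the 0 h level at 48 h. Snhg6 fell, at -1.57 ± 0.29, and Snhg12 at -1.35 ± 0.40 with a call lost under the adjustment. Members that fell numbered 4 with the adjustment and 5 without 48 h replicate B.

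The median of nuclear-encoded respiratory chain subunits changed sign with the adjustment: 5 of 43 rose and 21 fell, with a median log2 change of -0.29 (0.16 adjusted for GC and length). With the adjustment 21 rose and 12 fell, and risers numbered 3 without 48 h replicate C and 2 without any other single library of 5 h or 48 h. Sdha, the flavoprotein of complex II, was at 193, 189 and 187 CPM at 5 h and 484, 464 and 465 CPM at 48 h (log2 fold change 1.31 ± 0.08 (SE), adjusted p = 2.26e-09). Ndufb8 and Ndufb9, accessory subunits of complex I, and cytochrome c (Cycs) fell, at -1.41 ± 0.16, -1.19 ± 0.23 and -1.15 ± 0.14.

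Genes of DNA replication, the helicase, clamp and nucleotide supply of S phase, fell: 3 of 51 rose and 34 fell, with a median log2 change of -0.62 (-0.60 adjusted for GC and length). Of the 11 above 0 h at 5 h, all fell and 9 were below 0 h at 48 h, while of 13 already below 0 h, 3 fell further, 3 rose and 7 were not called. Cyclin E2 (Ccne2) was at 32.1, 35.4 and 27.5 CPM at 0 h, 59.8, 65.2 and 59.8 at 5 h and 19.3, 18.8 and 18.9 at 48 h (log2 fold change -1.70 ± 0.13 (SE), adjusted p = 1.4e-08). The origin subunit Orc6 and the helicase subunit Gins2 fell from 185 ± 2.64 to 62.3 ± 1.52 CPM (-1.57 ± 0.13) and from 59.5 ± 6.20 to 22.2 ± 0.945 CPM (-1.43 ± 0.13), and the sliding clamp Pcna at -1.32 ± 0.10. The risers were Chaf1a, E2f1 and Pold1, at 0.51 ± 0.12, 0.38 ± 0.11 and 0.28 ± 0.11, and with the adjustment none of them rose and Pold1 fell by 0.27. Pold1 also lost its call without 48 h replicate A or C or 5 h replicate A or B.

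Genes of G2 and mitosis were mixed: 19 of 46 rose and 11 fell, with a median log2 change of 0.16 (0.15 adjusted for GC and length). Mki67, the proliferation antigen, was at 401, 386 and 325 CPM at 0 h, 177, 191 and 229.8 at 5 h and 449.5, 462 and 454 at 48 h (log2 fold change 1.19 ± 0.17 (SE), adjusted p = 1.25e-05). The spindle protein Aspm and the kinase Plk1 rose from 80.7 ± 7.46 to 186 ± 3.71 CPM (1.20 ± 0.19) and from 58.5 ± 3.12 to 122 ± 2.69 CPM (1.06 ± 0.12), whereas the centromeric histone Cenpa fell from 133 ± 4.90 to 61.8 ± 0.552 CPM (-1.11 ± 0.13) and the mitotic kinase Cdk1 at -0.72 ± 0.09. Of the 25 below 0 h at 5 h, 16 rose and 9 were not called. Of 12 replication-dependent histones, 1 rose and 0 fell, with a median log2 change of -0.10 (0.23 adjusted for GC and length, with 4 risers). Their median against 0 h was 0.93 at 5 h and 1.07 at 48 h. These mRNAs lack a poly(A) tail and are seen only in part by a poly(A) library.

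Promoters of the phase-specific genes were searched for the elements that mark each class. The E2F sites TTTCCCGC and TTTGGCGC were each found in 7 of 49 windows of DNA replication genes (14.3%), against 1.07% and 0.514% of all windows. The cell cycle genes homology region, spelled TTTGAA, was found in 27 of 41 windows of G2 and mitosis genes (65.9%) against 17.9%, and the CCAAT box in 73.2% against 37.4%. Elements of other lists were searched too. The sterol regulatory element had 0 matches in 20 windows of its list, and the CLEAR E-box of lysosome genes 0 in 34. The serum response element core had 0 in 36 immediate-early windows, and the AP-1 site was in 2.78% of them against 5.2% of all. Tandem E-boxes were in 0 of 10 windows of the alpha-arrestin list. The ATF4 element was in 7 of 37 windows of its list (18.9% against 0.895% of all). The TEAD site was in 13 of 22 (59.1% against 14.7%) and the antioxidant response core in 8 of 22 (36.4% against 12.4%). The cAMP response element was in 2 of 36 immediate-early windows (5.56% against 1.79%) and the D-box in 1 of 21 clock windows (4.76% against 0.938%). These last shares rest on very few windows. As before, both strands were searched and the matches are in capitals. The 7 stretches were picked after the values were seen, to set examples of each element beside the changes of their genes. For Mcm5, Mcm6 and Mki67, the bases just after the RefSeq start were not found in a GENCODE M21 transcript of the gene. Mcm5, Cdc6 and Mcm6, which license origins, hold an E2F site and had log2 changes of -0.63 ± 0.09, -0.41 ± 0.08 and -0.13 ± 0.08, the last not called (adjusted p = 0.181) but past the threshold at -0.32 with the adjustment, and also with voom and when only these 6 libraries were fitted. Mki67, Cdc20, an activator of the anaphase ligase, Cdk1 and the topoisomerase Top2a hold TTTGAA and had log2 changes of 1.19 ± 0.17, 0.59 ± 0.10, -0.72 ± 0.09 and -0.37 ± 0.11.
Mcm5, chr8:75109339-75109508, plus strand: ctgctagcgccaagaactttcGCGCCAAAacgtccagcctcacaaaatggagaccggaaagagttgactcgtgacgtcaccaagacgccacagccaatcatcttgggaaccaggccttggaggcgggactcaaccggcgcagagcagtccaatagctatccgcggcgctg
Cdc6, chr11:98907982-98908150, plus strand: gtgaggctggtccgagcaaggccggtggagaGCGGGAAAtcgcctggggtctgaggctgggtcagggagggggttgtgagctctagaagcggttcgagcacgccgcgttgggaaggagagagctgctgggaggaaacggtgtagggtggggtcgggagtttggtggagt
Mcm6, chr1:128359706-128359875, minus strand: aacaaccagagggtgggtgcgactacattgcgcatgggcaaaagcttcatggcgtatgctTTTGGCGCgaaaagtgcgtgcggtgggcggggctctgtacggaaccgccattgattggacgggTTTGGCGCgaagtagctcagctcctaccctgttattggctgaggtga
Mki67, chr7:135716380-135716549, minus strand: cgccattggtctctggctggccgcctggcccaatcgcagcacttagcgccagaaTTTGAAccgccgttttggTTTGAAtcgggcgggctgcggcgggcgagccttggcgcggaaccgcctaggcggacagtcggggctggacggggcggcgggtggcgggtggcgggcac
Cdc20, chr4:118437353-118437513, minus strand: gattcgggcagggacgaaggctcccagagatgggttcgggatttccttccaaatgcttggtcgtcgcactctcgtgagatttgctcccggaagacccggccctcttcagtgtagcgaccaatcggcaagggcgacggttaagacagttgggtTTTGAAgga
Cdk1, chr10:69352939-69353082, minus strand: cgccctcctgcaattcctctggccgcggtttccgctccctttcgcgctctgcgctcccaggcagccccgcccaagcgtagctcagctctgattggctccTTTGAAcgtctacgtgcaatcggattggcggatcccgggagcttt
Top2a, chr11:99024190-99024359, minus strand: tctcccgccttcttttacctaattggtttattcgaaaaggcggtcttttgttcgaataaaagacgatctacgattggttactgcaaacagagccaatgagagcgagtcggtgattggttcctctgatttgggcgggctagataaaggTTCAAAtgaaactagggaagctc

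G1 regulators and p53 targets mostly rose. Of G1 cyclins, CDKs and CDK inhibitors, 11 of 15 rose and 1 fell, with a median log2 change of 0.75 (0.58 adjusted for GC and length). The inhibitor Cdkn1a (p21) was at 203, 185 and 209 CPM at 0 h, 103, 107 and 108 at 5 h and 244, 242 and 255 at 48 h (log2 fold change 1.22 ± 0.08 (SE), adjusted p = 3.88e-09), and Cdkn2c (p18) and Ccnd2 (cyclin D2) rose from 38.2 ± 2.35 to 80.3 ± 2.66 CPM (1.07 ± 0.08) and from 111 ± 4.40 to 223 ± 6.66 CPM (1.01 ± 0.12). Rbl2 (p130) rose by 0.91 ± 0.13, and Ccnd1 (cyclin D1) was the single faller at -0.58 ± 0.09. Of p53 targets, 17 of 22 rose and 2 fell, with a median log2 change of 0.61 (0.61 adjusted for GC and length, with 4 fallers). All 13 below 0 h at 5 h rose, and 6 of them ended above 0 h. Beside Trp53inp1, Zmat3, an RNA-binding protein, was at 33.1, 39.2 and 40.7 CPM at 5 h and 120.4, 123 and 124 CPM at 48 h (log2 fold change 1.70 ± 0.12 (SE), adjusted p = 7.51e-09). Gtse1 and the death receptor Fas rose from 74.7 ± 1.30 to 254 ± 2.62 CPM (1.77 ± 0.10) and from 3.55 ± 0.441 to 10.9 ± 0.876 CPM (1.61 ± 0.13), and Mdm2, the ubiquitin ligase of p53, by 0.62 ± 0.08. Tigar and Plk2 fell, at -1.11 ± 0.12 and -1.04 ± 0.10.

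Matrix genes mostly rose. Of fibrillar and basement-membrane collagens, 16 of 18 rose and 0 fell, with a median log2 change of 1.11 (0.46 adjusted for GC and length). Col1a1 was at 3224, 2727 and 3272 CPM at 0 h, 1596, 1744 and 2003 at 5 h and 4630, 4633 and 4760 at 48 h (log2 fold change 1.39 ± 0.16 (SE), adjusted p = 1.16e-06), lowest at 5 h in all replicates and above 0 h at 48 h. Col12a1, Col4a6 and Col11a1 rose from 26.5 ± 2.43 to 105 ± 1.27 CPM (1.99 ± 0.18), from 25.9 ± 2.90 to 85.02 ± 2.88 CPM (1.71 ± 0.15) and from 12.3 ± 1.19 to 33.6 ± 1.71 CPM (1.45 ± 0.13). Of 14 below 0 h at 2 h, 13 rose. Of 15 below 0 h at 5 h, 14 rose and 9 ended above 0 h. Collagen transcripts are long, and with the adjustment 11 rose and 2 fell.

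Of collagen processing and other matrix proteins, 17 of 32 rose and 4 fell, with a median log2 change of 0.31 (0.07 adjusted for GC and length, with 7 fallers). The small proteoglycans Ogn and Bgn were at 3.13, 2.72 and 3.39 CPM at 5 h and 17.2, 16.95 and 17.7 CPM at 48 h (log2 fold change 2.49 ± 0.14 (SE), adjusted p = 1.34e-09) and 4.33, 3.53 and 4.42 CPM at 5 h and 17.1, 16.95 and 15.8 CPM at 48 h (log2 fold change 2.03 ± 0.15 (SE), adjusted p = 1.04e-08). The procollagen peptidase Adamts2 rose from 21.5 ± 0.560 to 76.8 ± 3.27 CPM (1.83 ± 0.12), whereas tenascin C (Tnc) was at 123, 116 and 118 CPM at 0 h, 373, 409 and 453 at 5 h and 81.2, 85.1 and 84.6 at 48 h (log2 fold change -2.30 ± 0.15 (SE), adjusted p = 4.99e-09), a peak at 5 h. Of matrix proteases and inhibitors, 9 of 15 rose and 4 fell, with a median log2 change of 0.39 (0.18 adjusted for GC and length). The membrane collagenase Mmp14 was at 120.2, 109.9 and 122 CPM at 5 h and 388, 386 and 392 CPM at 48 h (log2 fold change 1.73 ± 0.11 (SE), adjusted p = 2.26e-09) and the aggrecanase Adamts4 rose by 1.56 ± 0.20, while the inhibitor Timp1 fell from 213 ± 10.3 to 82.1 ± 1.83 CPM (-1.37 ± 0.11).

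Of SRF and actin cytoskeleton genes, 14 of 27 rose and 7 fell, with a median log2 change of 0.31 (0.06 adjusted for GC and length). Srf itself, vinculin (Vcl) and Actg1 rose from 48.6 ± 1.65 to 119.8 ± 2.32 CPM (1.30 ± 0.13), from 153 ± 4.98 to 359.7 ± 13.1 CPM (1.23 ± 0.14) and from 717 ± 8.09 to 1476 ± 23.97 CPM (1.04 ± 0.15), and the cofactor Fhl2 fell, at -0.93 ± 0.10. Of YAP and TEAD targets, 10 of 22 rose and 7 fell, with a median log2 change of 0.23 (-0.09 adjusted for GC and length, with 6 risers). The phosphatase Ptpn14, which restrains YAP, rose from 40.9 ± 1.97 to 124 ± 7.26 CPM (1.61 ± 0.16), while the matricellular protein Ccn2 and the kinase Nuak2 fell from 152 ± 14.7 to 55.9 ± 5.66 CPM (-1.44 ± 0.18) and from 27.6 ± 2.13 to 6.89 ± 0.803 CPM (-2.01 ± 0.19). The medians of both lists shrank or changed sign with the adjustment. Of tubulins, 1 of 11 rose and 5 fell, with a median log2 change of -0.29 (-0.32 adjusted for GC and length), with Tubb2a at -0.76 ± 0.12, Tuba1a at -0.63 ± 0.15 and Tuba1c at -0.40 ± 0.11 against Tubb5 at 0.44 ± 0.13. Tubulin genes are alike enough for reads to be shared.

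Of BMP and TGF-beta feedback genes, 9 of 17 rose and 4 fell, with a median log2 change of 0.38 (0.06 adjusted for GC and length). Apart from the Id genes, Smad6, an inhibitory Smad, was at 3.91, 4.68 and 3.95 CPM at 5 h and 13.5, 13.8 and 16.6 CPM at 48 h (log2 fold change 1.80 ± 0.15 (SE), adjusted p = 4.67e-08), and Ltbp2, which binds latent matrix growth factors, rose from 24.2 ± 2.27 to 77.7 ± 1.47 CPM (1.68 ± 0.15). Skil, Pmepa1 and Bambi fell, at -1.32 ± 0.18, -1.25 ± 0.12 and -0.82 ± 0.13. With the adjustment 8 rose and 8 fell. Of Wnt and Notch pathway genes, 3 of 10 rose and 2 fell, with a median log2 change of 0.18 (-0.10 adjusted for GC and length, with 4 fallers). Notch1 was at 20.7, 22.4 and 17.5 CPM at 0 h, 13.1, 11.99 and 17.7 at 5 h and 77.5, 77.8 and 77.7 at 48 h (log2 fold change 2.45 ± 0.24 (SE), adjusted p = 2.1e-07), with every 48 h library above all those of 0 h and 5 h. Notch2 rose by 0.69 ± 0.17, but its value turned to -0.19 with the adjustment. Lef1 fell, at -0.56 ± 0.15, and so did Ccn5, at -0.56 ± 0.20, a call lost without 48 h replicate A or B or 5 h replicate A or C.

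Of circadian clock genes, 2 of 17 rose and 9 fell, with a median log2 change of -0.43 (-1.03 adjusted for GC and length). The repressors Per2 and Bhlhe40 were at 26.04, 25.3 and 26.7 CPM at 5 h and 9.70, 10.6 and 9.38 CPM at 48 h (log2 fold change -1.39 ± 0.24 (SE), adjusted p = 7.59e-05) and 35.7, 33.9 and 37.5 CPM at 5 h and 14.3, 13.7 and 13.3 CPM at 48 h (log2 fold change -1.37 ± 0.10 (SE), adjusted p = 1.72e-08), and Ciart fell from 2.41 ± 0.377 to 0.529 ± 0.0321 CPM (-2.17 ± 0.23). The nuclear receptor Rora, an activator of the loop, rose from 1.41 ± 0.297 to 9.03 ± 0.259 CPM (2.68 ± 0.20). No untreated library was taken at 5 h or 48 h, so the drug and the phase of the clock cannot be told apart. Of mRNA decay regulators, 22 of 31 rose and 3 fell, with a median log2 change of 0.46 (0.17 adjusted for GC and length). Of 14 below 0 h at 5 h, 12 rose. Besides Zfp36, its relative Zfp36l1 and the deadenylase subunit Cnot3 rose from 41.4 ± 3.82 to 86.7 ± 1.80 CPM (1.06 ± 0.15) and from 38.2 ± 2.83 to 82.2 ± 2.54 CPM (1.10 ± 0.11), and Lsm1, of the decapping complex, fell, at -1.14 ± 0.11. With the adjustment 15 rose and 7 fell.

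The counting tool and its use of strand are not given in the sources used here, so reads of a gene and of one that overlaps it on the other strand cannot be told apart. In the GENCODE M21 annotation this touches Txnip, Zfp36, Tle2, Mlxip, Rora, Ptpn14, Ltbp2, Bhlhe40, Dusp5, Ccnd2, Tigar, Lef1 and Npc1, which overlap antisense transcripts. Ccne2, Orc6, Gins2, Nhp2, Psmb7, Cyp51, Tap1, Glis2 and Syvn1 overlap protein-coding genes of the other strand, and Cct6a and Psph overlap each other. Fdps, Ndufb8, Ndufb9, Rpl13a and Tuba1a share their strand with an overlapping protein-coding model, and Hspa8, Snhg1, Snhg12, Zfas1 and Taf1d hold small nucleolar RNAs. Values of these genes carry that uncertainty.

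The same interval in CGR8 was set against that in NIH/3T3 as a difference of differences over all 30 libraries. It was called for 4565 of 17549 genes (26%). The direction of these calls was not stable: 35.5% were more positive in CGR8 in this fit (9.23% of the genes tested, against 16.8% more negative), 44.8% with RLE scaling, 45.4% with library size alone, 51.1% among genes of at least 5 CPM, 50.9% with the adjustment for GC and length, and 60.0% and 58.7% without CGR8 5 h replicate A or B. The median difference of all genes moved with it, from -0.13 to -0.02 with library size alone and 0.10 without CGR8 5 h replicate A. Ribosome biogenesis genes, 36 of 42 of which fell in NIH/3T3, had a more positive change in CGR8 for 27 of 42 (27 to 34 over those 7 settings) and a more negative one for 0. Circadian clock genes had 11 more positive and 1 more negative of 17. Interferon-response genes had 0 more positive and 11 more negative of 24, and fibrillar and basement-membrane collagens 0 and 7 of 18, the latter 3 without CGR8 5 h replicate B. Respiratory chain subunits had 0 and 19 of 43, which became 10 with RLE scaling and 3 and 5 without CGR8 5 h replicate A or B. Ribosomal proteins had 0 and 0 of 78, CCT subunits 0 and 0 of 8, and proteasome subunits 2 and 0 of 32. Proteasome subunits more positive in CGR8 numbered 7 with library size alone, 9 with the adjustment, and 9 and 8 without CGR8 5 h replicate A or B. CCT subunits more positive in CGR8 numbered 5 of 8 with library size alone, 3 with the adjustment, and 6 when either of those libraries was left out.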

How the data were processed

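RNA was purified on columns and sequenced after a stranded, ligation-based mRNA library preparation, per the labels' protocols. The table that the authors deposited holds whole-number read counts by gene, not normalized, with 1 column for each of the 30 libraries (0 columns left out). STAR, DESeq2 and GRCm39 are named in the submitters' processing notes without versions or roles, and the counting tool and annotation are not given in the sources used here. Symbols were matched by Ensembl identifier without version to GENCODE M21 on GRCm38, for 51880 of 57186 identifiers (90.72%), so no coordinates of genes are given, and promoter windows come from RefSeq on GRCm38.p6.

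Counts were fitted with edgeR 4.0.16 in R 4.3.3, with 1 coefficient per time in the 15 NIH/3T3 libraries (18.2 to 30.5 M counts, mega-counts). Genes were kept by filterByExpr (minimum count 10, minimum total 15) and libraries were scaled by TMM. The quasi-likelihood F test was adjusted by Benjamini-Hochberg over all genes tested, and called at 0.05. SE is the size of the log2 change over the square root of F. CPM values use TMM-scaled totals. A prior count of 2 entered log-scale CPM values only, and the fitted log2 changes kept edgeR's default. Counting error is largest for genes of few counts.

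The 37 gene lists (1013 symbols, 1010 matched), the 8 marker lists and the tests were chosen with earlier results of these data known. Genes were named by rule: the 10 largest rises and falls among called genes of at least 10 CPM without overlap between libraries, the 4 largest called changes in each list (at least 2 CPM), the 4 largest moves in each course of genes changed 2-fold at 2 h, and the 3 largest differences between lines in each direction. Predicted genes and pseudogenes were passed over, and some genes the rule names are not reported here. Other list members were named after their values were seen. The replicates of each time differed by more than counting noise (chi-square per degree of freedom from 2.06 to 5.76), so none is a duplicate.

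Alternatives were RLE scaling, library size alone, DESeq2 1.42.0, limma 3.58.1 voom with sample weights, a 5 CPM minimum on the mean, no filter, a fit without the other times, a block for the replicate letters, and leaving out 1 library at a time. Removal of smooth GC and length trends was added after the data were seen. On simulated counts for 48 h against 5 h (13623 genes), 75.27% of log2 changes of 1 and 97.17% of log2 changes of 2 were called, and 6.49% of calls were false. Only 93 genes were changed by 1 and 106 by 2, without a length trend, whereas 65.6% of genes were called in the data. The simulated rates may therefore not hold for the data.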

Additional observations from a re-analysis of the deposited data

Results flagged for a closer look

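CGR8 and NIH/3T3 changed unequally from 5 h to 48 h in 4565 of 17549 genes, by an interaction term tested over the 30 libraries with edgeR's quasi-likelihood test and Benjamini-Hochberg adjustment. The 5 genes given here had the largest differences reported, among called genes of at least 10 CPM in a group of each line. Values of NIH/3T3 in this joint fit differ slightly from those of its own fit.

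Ror1, a receptor of Wnt5a, changed by 0.61 ± 0.19 in NIH/3T3 and 3.96 ± 0.25 in CGR8, a difference of 3.35 ± 0.32 (adjusted p = 7.78e-09). In CGR8 it went from 0.501, 1.52 and 1.21 CPM to 10.3, 19.5 and 20.4 CPM. Lef1, a nuclear effector of Wnt signalling, changed by -0.50 ± 0.16 and 2.69 ± 0.17, a difference of 3.19 ± 0.24 (adjusted p = 1.11e-10).

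Ly6a, a surface protein known as Sca-1, changed by 0.21 ± 0.18 in NIH/3T3 and -5.20 ± 0.30 in CGR8, where it went from 13.9, 12.9 and 11.5 CPM to 0.146, 0.483 and 0.404 CPM. The difference was -5.41 ± 0.36 (adjusted p = 1.16e-11), and the low counts at 48 h limit its precision. Tor4a, a torsin ATPase, changed by 2.04 ± 0.15 and -1.21 ± 0.14, a difference of -3.25 ± 0.21 (adjusted p = 6.18e-12). Rnf213, a large ubiquitin ligase, changed by 2.20 ± 0.30 and -0.67 ± 0.29, a difference of -2.87 ± 0.41 (adjusted p = 6.14e-06), and its 5 h libraries in CGR8 were spread at 25.2, 46.0 and 62.6 CPM. These 5 differences kept their direction and their call under all 21 alternatives run.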

How the results depend on the processing

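Of the 9140 genes called between 5 h and 48 h, the count stayed within 1.5 times under all 15 alternatives, from 7144 at a mean of at least 5 CPM to 11028 with voom, and from 8379 to 8584 with a library left out. The count of 2-fold calls, 3079, became 1718 at a mean of at least 5 CPM, where fewer genes are tested. RLE scaling shifted the median log2 change of all genes by -0.02 and library size alone by 0.08. Counts by course moved more. With voom, genes raised at 2 h that then fell numbered 2987 and those that rose 308, genes lowered at 2 h that then rose 3183 and those that fell 362, genes raised at 5 h that rose further 533 and genes lowered at 5 h that fell further 607. With GC and length trends removed, lowered genes at 2 h rose in 1278 cases and fell in 208, and further changes after 5 h numbered 317 for rises and 424 for falls. With a library left out, the same counts ranged from 997 to 2062 and 79 to 140 (raised at 2 h), 1250 to 2221 and 71 to 192 (lowered at 2 h), 112 to 198 (raised at 5 h, risen further) and 190 to 238 (lowered at 5 h, fallen further). The difference between the lines was called for 7657 genes with voom and for 3898 to 4739 with a library left out. The cause of these changes was not tested.

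Of 212 genes named for 48 h against 5 h, 20 lost a call or reversed under at least 1 alternative. With the trends removed, Notch2 turned to -0.19, Csf1 to -0.008, Isg15 to 0.44, Srebf2 to -0.60, Polr1a to -0.21, Tcof1 to -0.32, Pold1 to -0.27 and Chaf1a to -0.077, and Mlxip, Acacb, Aars, Taf1d, Snhg12, Pdia6, Utp20 and E2f1 lost their calls. Ccn5, Glis2, Ccl2, Psmb10 and Pold1 lost theirs with a library left out, Glis2 also with library size alone and Pold1 without the filter. When only the 6 compared libraries were fitted, fallers numbered 20 of the immediate-early, 12 of the aminoacyl-tRNA synthetase, 9 of the endoplasmic reticulum chaperone, 8 of the tubulin, 4 of the p53, 3 of the G1 and 2 of the histone genes, and risers 9 of the glycolysis, 8 of the respiratory chain, 5 of the DNA replication and 5 of the Wnt and Notch genes. Interferon risers numbered 8 and clock risers 0 at a mean of at least 5 CPM, where fewer genes are tested. The medians of 8 of the 37 lists changed sign under an alternative. The replicate letters did not pair the libraries: same-letter deviations at 5 h and 48 h correlated by 0.11, 0.06 and 0.00, against -0.19 to 0.13 for other letters. With the letter as a block 9152 genes were called (4756 higher, 4396 lower), 3068 of them 2-fold, and the difference between lines for 4510, and it changed no count by course by 1.5 times. No library was left without counts to test, and genes of few counts are limited by depth.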
